A study of Danio rerio with 6 samples.

Results

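In sorted zebrafish hepatocytes, 10 genes grouped as superficial epidermis regulators and surface genes were followed, of 23745 genes in the deposited table. They were the transcription factor genes grhl1, grhl3 and ovol1, and the surface and membrane genes lye, anxa1a, s100a10b and perp. The others were the junction genes cdh1 and tjp3 and the dehydrogenase gene sdr16c5b. The grouping is by name, and sdr16c5b had a mean of 171 TPM in CTL hepatocytes. All 10 were found by symbol. They were chosen by name after the lcat OE against CTL values of these same libraries were known, so their group differences are given below as a description, with no test. RNA came from 2000 hepatocytes per sample, sorted by fluorescence from larvae at 6 days post fertilisation. The 3 CTL libraries came from Tg(fabp10a:eGFP) larvae, in which the promoter of the liver fatty acid binding protein gene fabp10a drives a green reporter. The 3 lcat OE libraries came from larvae with this reporter and a further transgene, fabp10a:lcat-T2A-mCherry, in which the promoter drives lcat (lecithin-cholesterol acyltransferase) joined to a red reporter by a T2A peptide. All larvae thus carried the green reporter, and neither group had the red reporter alone, so lcat, the red reporter and other differences between the lines cannot be told apart. Whether replicates were separate clutches or sorts is not in the labels, and the p-values below therefore measure only sample-to-sample spread, possibly technical in origin.

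The larval fish skin is a thin sheet in which a superficial layer lies over basal keratinocytes. Grainyhead-like factors and Ovo-like zinc finger factors are known regulators of epidermal differentiation and barrier genes across animals, and cadherins, tight junction scaffolds and desmosomal proteins hold the sheet together. Several of these products, E-cadherin among them, are general to epithelia and are also made by hepatocytes.

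Libraries held 23336591 to 24890856 counts. The overexpressed gene lcat had 149, 120 and 144 CPM (counts scaled to library size) in CTL 1 to 3 and 3255, 2610 and 1958 CPM in lcat OE 1 to 3, so no library went against its label. The hepatocyte label was checked on 14 hepatocyte marker genes, none of which was at 0 in a whole group. Their summed level was 237534 to 265588 CPM in CTL and 290223 to 343392 CPM in lcat OE. The apolipoprotein genes apoa2 (mean 103604 CPM in CTL, 137859 in lcat OE) and apoa1b (92163 and 106356) made up most of it. Of these 14, 2 rose and 1 fell. With 1 library left out the number that rose was 1 without CTL 2 or CTL 3, 5 without lcat OE 1 and 4 without lcat OE 3, and the number that fell was 0 without CTL 1 and 2 without lcat OE 3. Other scalings called more of the 14: library totals gave 6 higher and 4 lower, the FPKM fit 6 higher and 3 lower, and the fit of log2(TPM + 1) 2 higher and 5 lower. DESeq2 gave 4 higher and 1 lower.

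The 10 genes divided into 7 that were higher in lcat OE and 3 that were lower. For all 10 the 3 libraries of one group lay outside the range of the other, both in CPM and in TPM, the deposited level scaled by transcript length. Of all 14096 genes tested, 23.6% had all lcat OE libraries above all CTL libraries in CPM and 24.1% had them all below. In the edgeR quasi-likelihood fit over all genes (Benjamini-Hochberg adjusted p under 0.05), 16.3% of genes were called higher and 16.3% lower. This split differed with the scaling: of all calls, 49.9% were higher with TMM, 38.8% with library totals, 39.8% for FPKM and 30.2% for TPM (both as log2 with a pseudocount of 1). The direction of each of the 10 genes was the same under all of these. The 7 higher and 3 lower genes were all called in this fit, which says nothing further, since this contrast chose them. All 10 passed the filter on low counts. In these bulk libraries, more cells of a type and more RNA per cell cannot be told apart.

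**Figure D1:**
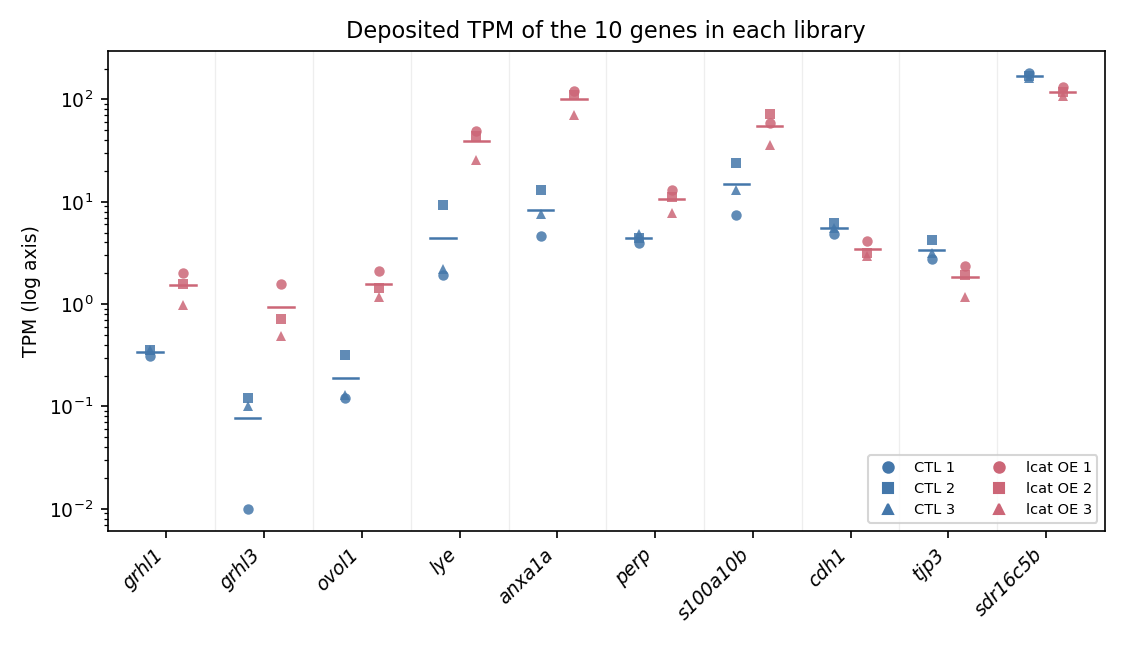
Deposited TPM (log axis) of the 10 genes in each library; blue marks CTL, red lcat OE, marker shape the replicate number, and short lines the group means. Red points lie above blue for the 7 genes on the left and below for cdh1, tjp3 and sdr16c5b, and sdr16c5b is the most abundant gene in both groups.

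The 3 transcription factor genes had the lowest CTL levels of the 10. The gene grhl3, a grainyhead-like factor required for epidermal barrier formation in mice, had 1, 8 and 7 counts in CTL and 113, 55 and 37 counts in lcat OE. Its level was 0.01, 0.12 and 0.10 TPM in CTL and 1.59, 0.72 and 0.49 TPM in lcat OE. No CTL library held more than 8 counts of it, and its 3 lcat OE libraries spread over a wider range than those of any other of the 10 genes in that group (2.69-fold in CPM). The fitted log2 fold change was 3.68 (SE 0.58) and rests on 16 counts in the CTL group.

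The gene grhl1, a second grainyhead-like factor known in mice for its role in desmosomal gene expression, had 0.31, 0.36 and 0.36 TPM in CTL and 2.03, 1.58 and 0.98 TPM in lcat OE. The CTL libraries were nearly level with each other, unlike those of grhl3. Its log2 fold change was 1.98 (SE 0.23).

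The gene ovol1, named ovol1a in RefSeq, encodes an Ovo-like zinc finger factor that in mice restrains the growth of epidermal progenitors. It had 0.12, 0.32 and 0.13 TPM in CTL and 2.1, 1.43 and 1.18 TPM in lcat OE. CTL 2 stood above the other CTL libraries. The log2 fold change was 3.21 (SE 0.35).

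Among the surface genes, anxa1a had the largest change and, in lcat OE, a level close to that of sdr16c5b. It encodes an annexin, a calcium-dependent membrane-binding protein. Its level was 4.67, 12.9 and 7.64 TPM in CTL and 121, 111 and 70.8 TPM in lcat OE. CTL 2 was again the highest control and lcat OE 3 the lowest overexpressing library. The log2 fold change was 3.76 (SE 0.37), or 13.5-fold.

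The gene lye encodes a Ly6-family protein of the epidermis, a group of small proteins usually anchored at the cell surface. It had 1.91, 9.23 and 2.19 TPM in CTL and 49.3, 43.6 and 25.7 TPM in lcat OE. The CTL spread came from CTL 2 alone, the other two being close together. The log2 fold change was 3.32 (SE 0.65), and 4.39 without CTL 2.

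The gene s100a10b encodes a member of the S100 family whose mammalian counterpart binds annexin A2 at the membrane. It had 7.38, 24.1 and 12.9 TPM in CTL and 58.4, 72.0 and 35.7 TPM in lcat OE. Here lcat OE 2, not lcat OE 1, was the highest library. The log2 fold change was 2.07 (SE 0.45).

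The gene perp encodes a tetraspan membrane protein of desmosomes, a target of p53 and p63 in mice. It had 3.98, 4.44 and 4.81 TPM in CTL and 13.1, 11.1 and 7.72 TPM in lcat OE. It had the smallest log2 fold change of the 7 higher genes, 1.44 (SE 0.14), and CTL libraries that differed by 1.15-fold at most in CPM.

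The 3 genes that were lower changed by less than 2-fold. E-cadherin, the calcium-dependent adhesion molecule of epithelial adherens junctions encoded by cdh1, had 4.85, 6.17 and 5.56 TPM in CTL and 4.16, 3.16 and 2.94 TPM in lcat OE. Its log2 fold change was -0.51 (SE 0.13), and its counts were not whole in every library. The gap between the groups was narrow, lcat OE 1 lying just under CTL 1.

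The gene tjp3 encodes a zonula occludens protein, a scaffold under tight junctions. It had 2.76, 4.20 and 3.15 TPM in CTL and 2.36, 1.92 and 1.18 TPM in lcat OE. The 3 lcat OE libraries all lay below the lowest CTL library, and the log2 fold change was -0.72 (SE 0.19).

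The gene sdr16c5b, listed in RefSeq also as rdhe2, encodes a short-chain dehydrogenase; its frog and mouse relatives oxidise retinol. It had 183, 168 and 161 TPM in CTL and 131, 117 and 109 TPM in lcat OE. Its libraries differed little within each group, and the log2 fold change was -0.34 (SE 0.11).

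**Figure D2:**
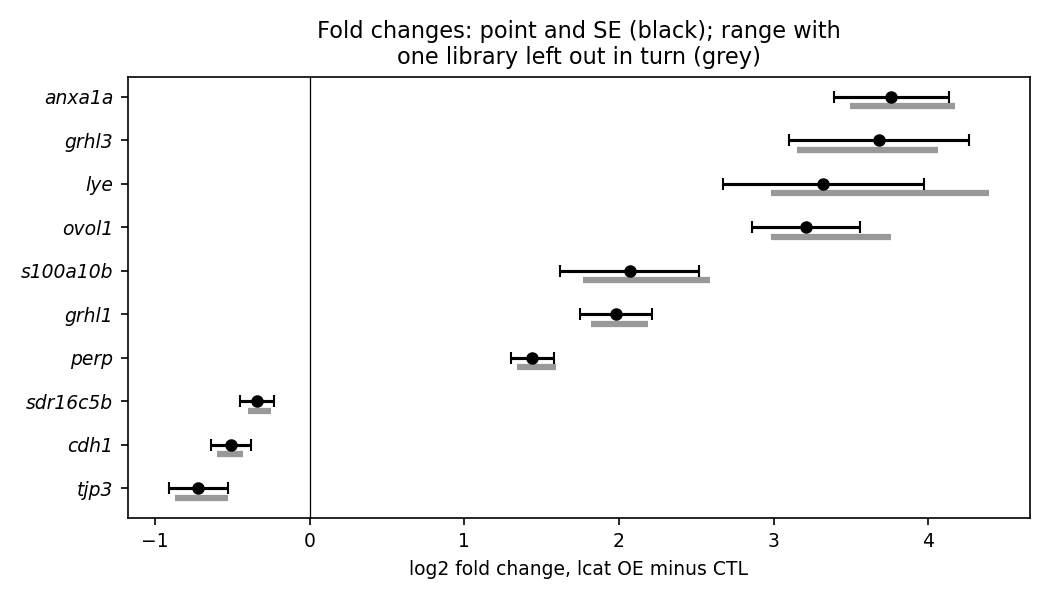
Log2 fold change of the 10 genes (lcat OE minus CTL, edgeR fit) as black points with standard errors; grey bars span the values obtained when each of the 6 libraries was left out in turn. No bar crosses 0, and the longest bar, that of lye, reaches from 2.98 to 4.39.

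The order of levels differed between the groups. In CTL, by mean TPM, sdr16c5b stood apart at 171 ± 11.3 TPM (SD, n = 3 here and below), followed by s100a10b at 14.8 ± 8.55, anxa1a at 8.42 ± 4.19, cdh1 at 5.53 ± 0.661, lye at 4.44 ± 4.15, perp at 4.41 ± 0.416 and tjp3 at 3.37 ± 0.745 TPM. From s100a10b to tjp3 each gene's range overlapped that of the next, so the order of neighbours is not resolved there. Genes further apart in this stretch did differ without overlap in some cases. All s100a10b values lay above those of cdh1, perp and tjp3. All cdh1 values lay above those of perp (lowest 4.85 against highest 4.81 TPM) and tjp3, and all anxa1a values above those of tjp3. The 3 transcription factor genes followed, apart from tjp3 and overlapping in turn, at 0.343 ± 0.0289 TPM for grhl1, 0.190 ± 0.113 for ovol1 and 0.0767 ± 0.0586 for grhl3.

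In lcat OE the mean was 119 ± 11.1 TPM for sdr16c5b, 101 ± 26.5 for anxa1a, 55.4 ± 18.3 for s100a10b and 39.6 ± 12.3 for lye, each overlapping the next. Next came perp at 10.7 ± 2.73 and cdh1 at 3.42 ± 0.650 TPM, each apart from its neighbours. The last 4 overlapped in turn: tjp3 at 1.82 ± 0.596, ovol1 at 1.57 ± 0.476, grhl1 at 1.53 ± 0.527 and grhl3 at 0.933 ± 0.580 TPM. The genes anxa1a and lye thus ranked above cdh1 without overlap in lcat OE but overlapped it in CTL. The gene perp lay above cdh1 in lcat OE and, by a narrow gap, below it in CTL, without overlap in either group.

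Libraries of one group differed in the same way for most of the genes. CTL 2 was the highest CTL library in CPM for 7 of 10 genes and CTL 1 the lowest for 8. Among lcat OE libraries, lcat OE 1 was the highest for 8 genes and lcat OE 3 the lowest for 8. The CTL spread, as the ratio of the highest to the lowest library, was 1.11 to 7.63 for the 7 higher genes and 1.17 to 1.4 for the 3 lower ones. In lcat OE it was 1.4 to 2.69 and 1.08 to 1.62.

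Epidermal marker genes other than the 10 were mostly higher in lcat OE. Of 20 genes of the epidermal surface, all of which were tested and none of which was at 0 in either group, 17 rose and 1 fell (median log2 fold change 3.37, against -0.02 for all 14096 genes). Their summed level was 730, 1239 and 954 CPM in CTL and 11905, 15306 and 10156 CPM in lcat OE. The keratin gene krt17 rose (8.87 to 751 CPM, log2 difference 6.40, SE 0.62, adjusted p = 0.00161). The gene aep1 rose from 0.550 to 40.7 CPM (6.20, SE 0.36, adjusted p = 2.85e-05). The keratin genes cyt1l (5.96, SE 0.31) and cyt1 (5.16, SE 0.35) rose as well, while krt92, named after its values were seen as the 1 gene that fell, went from 460 ± 31.0 to 276 ± 45.4 CPM (-0.73, SE 0.13, adjusted p = 0.00211). The part of these markers in the differences of the 10 genes was not tested.

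The 10 genes were also set against the summed level of these 20 markers in the same library. In CTL 1 to 3, krt92 alone made up 424, 477 and 478 CPM of sums of 730, 1239 and 954 CPM. In lcat OE 1 to 3 it made up 264, 238 and 327 CPM of 11905, 15306 and 10156 CPM. The CTL ratios thus rest largely on 1 marker that fell. Taking krt92 out shrinks the CTL sums far more than the lcat OE sums. By the CPM values of each library, anxa1a, ovol1 and, by a narrow gap, lye would then lie lower in lcat OE without overlap. Only grhl3 would still overlap. In lcat OE, krt4, cyt1 and cyt1l made up most of the sum, with means of 3493, 3353 and 3321 CPM. Their CTL means were 209, 93.8 and 53.5 CPM. The lcat OE ratios thus rest largely on these keratin genes, which rose. By log2 fold change, anxa1a (3.76) and grhl3 (3.68) lay above the list median of 3.37, and the others of the 10 below it. As ratios to the sum with krt92 in it, the 10 genes differed among themselves. For 4 genes the ranges of the groups overlapped: anxa1a had 9.28 ± 1.94 CPM per 1000 CPM of the markers in CTL and 10.3 ± 1.52 in lcat OE, lye 2.59 ± 1.75 and 2.24 ± 0.429, ovol1 0.487 ± 0.154 and 0.381 ± 0.109, and grhl3 0.207 ± 0.131 and 0.235 ± 0.135.

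The ratio was lower in lcat OE for the other 3 genes whose CPM was higher. It went from 1.73 ± 0.378 to 0.518 ± 0.123 for grhl1, from 7.33 ± 2.21 to 2.51 ± 0.210 for s100a10b and from 16.6 ± 4.07 to 3.42 ± 0.631 for perp, that is, 3.34, 2.93 and 4.83 times less per marker CPM. For cdh1, tjp3 and sdr16c5b the ratio was 18.2, 21.2 and 16.7 times less. For these 6 genes no lcat OE library reached a CTL library. As these ratios rest on the contrast that chose the genes, they are a description. They rest largely on krt92 in CTL and on krt4, cyt1 and cyt1l in lcat OE.

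**Figure D3:**
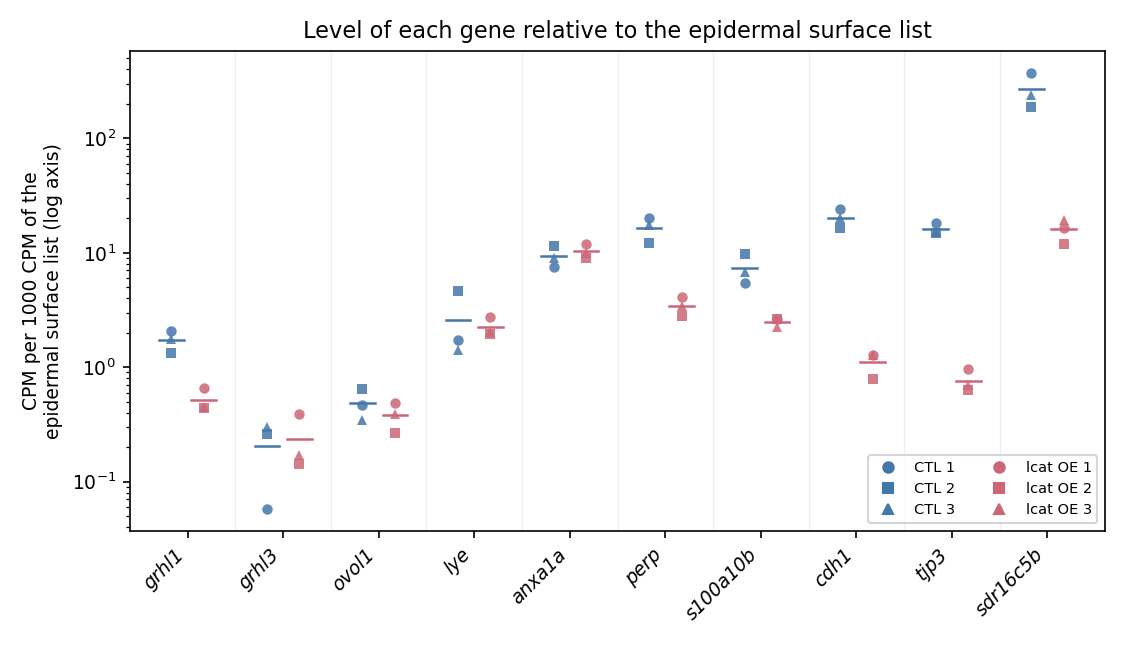
CPM of each gene per 1000 CPM of the 20 epidermal surface markers in the same library (log axis); blue marks CTL, red lcat OE, marker shape the replicate number, and short lines the group means. Red and blue overlap for grhl3, ovol1, lye and anxa1a, but without krt92 in the sum only grhl3 would overlap. Red lies below blue for the other 6 genes, by the most for cdh1, tjp3 and sdr16c5b. The blue points rest largely on krt92, the largest part of the marker sum in CTL, and the red points on krt4, cyt1 and cyt1l.

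Lists for the other skin cells held fewer tested genes. Of 13 basal keratinocyte genes 7 passed the filter on low counts, and 1 rose and 0 fell (edgeR; median log2 fold change 0.10). The one that rose was the keratin gene krtt1c19e, from 26.1 to 831 CPM (4.99, SE 0.55, adjusted p = 0.00243). It made up most of the summed level of the list, which was 17.0 to 51.0 CPM in CTL and 631 to 1010 CPM in lcat OE. The basal regulator gene tp63, named for its role after its values were seen, had 1.47 ± 0.259 CPM against 0.761 ± 0.343 with lcat OE (adjusted p = 0.0947). None of the 13 was at 0 in a whole group.

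Ionocyte genes were scarce: 4 of 12 passed the filter, 0 rose and 1 fell, ca2, a carbonic anhydrase gene (111 to 72.5 CPM, a log2 difference of -0.61, SE 0.12). Among genes below the filter, named after their values were seen, foxi3a had no count in CTL and 17 in lcat OE, ca15a had 2 and 49 counts, and slc4a1b had 4 and 45. For these 3 of the 12 genes all lcat OE libraries lay above all CTL libraries. For 2, ca2 and slc4a4b (113 counts in CTL and 58 in lcat OE), all lay below. The shares over all tested genes were 23.6% above and 24.1% below. The other genes below the filter overlapped between the groups. The median of the tested genes was -0.29, and 1.82 without CTL 2. DESeq2 called 4 genes of the list higher and 1 lower (median 1.19), and edgeR with no filter 3 higher and 1 lower (median 1.06). With 1 library left out the number that rose was 2 without CTL 1, CTL 2 or lcat OE 3 and 1 without CTL 3 or lcat OE 2, and 2 fell without lcat OE 1. The summed level of the list was 128 to 136 CPM in CTL and 93.5 to 101 CPM in lcat OE, and ca2 made up most of it. Of 5 mucous cell genes 4 were tested, and 1 rose and 0 fell, with a summed level of 2.70 to 3.56 CPM in CTL and 4.53 to 7.69 CPM in lcat OE. The gene that rose, named after its values were seen, was muc5.2, with 1 count in CTL and 45 in lcat OE. Without CTL 1, 2 rose. With at least 5 CPM in 3 libraries, on both log2 TPM scales and on log2(FPKM + 1), 0 rose.

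In the list of biliary and simple epithelium, 9 of 10 genes were tested, of which 2 rose and 4 fell (median 0.07). The simple keratin genes krt8 (1109 to 469 CPM, a log2 difference of -1.24, SE 0.14) and krt18 (709 to 301 CPM, -1.23, SE 0.15) fell. The adhesion gene epcam rose (50.1 to 117 CPM, 1.22, SE 0.33, adjusted p = 0.0317). The call for epcam was lost without CTL 3 (adjusted p = 0.0843) and without lcat OE 2 (0.0819), within 5.29e-05 to 0.109 over 15 alternatives, which leaves 1 gene that rose in either case. The summed level was 2135 to 2383 CPM in CTL and 1133 to 1447 CPM in lcat OE.

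Close relatives of the 10 genes were compared next. Among the other grainyhead-like genes, grhl2a had 7 counts over the CTL libraries and 39 over lcat OE, and grhl2b had 6 and 11; both were below the filter on low counts and were not tested. The second ovol1 copy, ovol1b in RefSeq (si:dkey-17e16.13 in the table), had 0, 1 and 1 counts in CTL and 14, 7 and 6 in lcat OE and was not tested either. By TPM, grhl1 had the highest mean of the grainyhead-like genes in both groups, although its range overlapped that of grhl3 in lcat OE.

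The annexin A1 relatives anxa1b and anxa1c rose with fold changes close to that of anxa1a. The gene anxa1b went from 0.910, 3.43 and 1.52 TPM in CTL to 34.7, 20 and 12.9 TPM in lcat OE (log2 fold change 3.69, SE 0.57, edgeR adjusted p = 0.00765). The gene anxa1c went from 3.32, 6.91 and 4.56 TPM to 35.7, 98.9 and 41.4 TPM (3.77, SE 0.53, adjusted p = 0.00540), and in contrast to anxa1a its highest library was lcat OE 2. The copy anxa1d (zgc:110283 in the table) had 2.25 ± 1.31 TPM in CTL and 3.44 ± 1.61 in lcat OE (0.78, SE 0.42, adjusted p = 0.196); it passed without CTL 2 (adjusted p = 0.0280, within 0.0184 to 0.541 over 14 alternatives). Counts of anxa1b, anxa1c and anxa1d were not whole in every library, as happens where reads are divided between similar transcripts, while those of anxa1a were whole.

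The 2 copies of s100a10 went opposite ways. While s100a10b was higher in all lcat OE libraries, s100a10a fell from 1.12, 3.52 and 1.74 TPM to 0.150, 0.320 and 0.470 TPM (log2 fold change -2.52, SE 0.55, edgeR adjusted p = 0.00582). CTL 2 was the highest control for both copies. Of the annexin A2 genes, whose product is the binding partner of S100A10 in mammals, anxa2a rose from 8.01 ± 3.79 to 15.6 ± 2.95 TPM (1.15, SE 0.32, adjusted p = 0.0320). That call was lost without CTL 3 (0.0921), lcat OE 1 (0.0682), lcat OE 2 (0.107) or lcat OE 3 (0.0889), within 0.000349 to 0.107 over 15 alternatives. With 19 counts in each group, anxa2b was below the filter.

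Over the list of annexin and S100 genes, 19 of 28 matched genes were tested, 8 rose and 3 fell (median 0.78). The calcium-binding gene icn2 had the largest rise (10.8 to 286 CPM, a log2 difference of 4.72, SE 0.39), and s100v2 rose as well (2.47 to 11.5 CPM, 2.22, SE 0.22); icn and icn2 are also on the epidermal surface list. Of 8 Ly6-family genes matched, 5 were tested, 4 rose and 0 fell (median 1.67), and 1 fell without CTL 1 or lcat OE 3. With at least 5 CPM in 3 libraries 1 rose (median 0.90), and the median was 0.74 on log2(TPM + 1). The most abundant was ly97.3 in RefSeq (LOC100329375 in the table), which rose from 275 ± 34.5 to 518 ± 54.3 CPM (0.91, SE 0.13, adjusted p = 0.000505). The others that rose had means of at most 3.26 CPM in lcat OE.

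Cadherin and scaffold relatives followed. N-cadherin, encoded by cdh2, fell from 10.9 ± 1.21 to 6.83 ± 0.877 TPM (log2 fold change -0.50, SE 0.16, edgeR adjusted p = 0.0316), next to the value of -0.51 for cdh1. The cdh2 call was lost without CTL 1 (0.116), CTL 2 (0.0729) or lcat OE 1 (0.110), within 0.00895 to 0.116 over 15 alternatives. Among zonula occludens genes, tjp1b rose (0.713 ± 0.0503 to 0.897 ± 0.0987 TPM, 0.52, SE 0.14, adjusted p = 0.0182), a call lost without CTL 1 (0.0507) or CTL 2 (0.0672), within 0.0168 to 0.284 over 15 alternatives. The other three did not pass: tjp1a was at -0.42 (SE 0.21, adjusted p = 0.160), tjp2a at 0.71 (SE 0.27, 0.0661) and tjp2b at -0.16 (SE 0.11, 0.305). The tjp2a value passed without lcat OE 3 (0.0140), within 0.014 to 0.306 over 14 alternatives. With tjp2b at 15.7 ± 0.755 TPM in CTL, tjp3 was the second most abundant zonula occludens gene in both groups.

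The perp relative tmem47, which encodes a tetraspan protein of cell junctions, fell from 1.17 ± 0.193 to 0.483 ± 0.121 TPM (log2 fold change -1.09, SE 0.19, edgeR adjusted p = 0.00167), while perp was higher. Its counts, too, were not whole in every library. The copy sdr16c5a had 19.2 ± 2.24 TPM in CTL and 17.7 ± 1.94 in lcat OE (log2 fold change in the count fit 0.06, SE 0.11, adjusted p = 0.727).

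Junction genes were then described as lists. In the desmosome list 13 of 15 genes were tested, 8 rose and 1 fell (median log2 fold change 1.12, and 1.59 without CTL 2). With a pseudocount of 1, logged TPM values lowered this median to 0.55 and logged FPKM values lowered it to 0.65. The desmosomal cadherin gene dsg2.1 rose from 1.03 to 13.7 CPM (3.72, SE 0.26, adjusted p = 7.49e-06). The plakophilin genes pkp3a (7.61 to 37.7 CPM, 2.31, SE 0.17) and pkp1b (1.18 to 5.92 CPM, 2.32, SE 0.35) and the envoplakin gene evpla (2.11 to 17.9 CPM, 3.07, SE 0.46) rose too. The gene that fell was tmem47. Of these 15 genes, ppl, evpla and evplb are also on the epidermal surface list.

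Of 23 tight junction scaffold genes tested, 5 rose and 4 fell (median 0.25). The occludin genes oclnb (0.886 to 11.9 CPM, a log2 difference of 3.73, SE 0.35) and oclna (7.75 to 23.0 CPM, 1.57, SE 0.18) rose, and the crumbs polarity gene crb3b fell (13.7 to 5.01 CPM, -1.45, SE 0.18). With 1 library left out the number that rose was 2 without CTL 2, 3 without CTL 3, lcat OE 1 or lcat OE 2, and 8 without lcat OE 3. The number that fell was 2 without CTL 2, CTL 3 or lcat OE 3 and 1 without lcat OE 2, and the median was -0.10 without lcat OE 1.

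In the adherens junction list 13 of 17 matched genes were tested, 3 rose and 2 fell (median -0.12). Those that rose were named after their values were seen. By RefSeq name, nectin4a went from 0.109 to 2.28 CPM (a log2 difference of 4.31, SE 0.55). For vcla it was 0.41 to 2.98 CPM (2.85, SE 0.55), and for nectin4b 0.769 to 2.91 CPM (1.92, SE 0.35). None of these reached 5 CPM in any library, and with at least 5 CPM in 3 libraries 0 rose. The 2 that fell were cdh2 and the p120 catenin gene ctnnd1 (26.6 to 20.5 CPM, a log2 difference of -0.37, SE 0.11, adjusted p = 0.0208). The ctnnd1 call was lost without CTL 3 (0.0772), lcat OE 1 (0.0576) or lcat OE 3 (0.0543), within 0.0145 to 0.0772 over 15 alternatives, and 1 gene of the list fell in each fit that left out CTL 1, CTL 2, CTL 3, lcat OE 1 or lcat OE 3. The other catenin genes tested, picked once their values had been seen, missed the threshold: ctnna1 had 32.9 and 27.2 CPM in CTL and lcat OE (adjusted p = 0.109), ctnnb1 67.3 and 75.0 CPM (0.268) and ctnnb2 46.6 and 41.3 CPM (0.373).

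Of the epithelial transcription regulators besides the 10 genes, 16 of 22 matched were tested, 10 rose and 2 fell (median log2 fold change 1.57). With at least 5 CPM in 3 libraries, where fewer genes are tested, 3 rose and 1 fell (median 0.46). The median was 0.35 on log2(TPM + 1). The splicing regulator gene esrp1, kept on this list for its role in epithelial identity, rose from 0.599 to 9.69 CPM (4.0, SE 0.38, adjusted p = 0.000125). The factor genes elf3 (16.2 to 56.9 CPM, 1.81, SE 0.27) and tead3b (1.76 to 5.36 CPM, 1.61, SE 0.30) rose.

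Genes known in mammals as targets of grainyhead-like factors were mostly higher: of 17 tested, 13 rose and 0 fell (median 1.99). Among them were the vesicle transport gene rab25a (0.272 to 8.14 CPM, a log2 difference of 4.86, SE 0.41) and the protease inhibitor gene spint2 (6.98 to 75.7 CPM, 3.44, SE 0.19). In the list of mesenchymal counterparts, such as the zinc finger genes that Ovo-like factors are known to oppose, 12 of 16 were tested, 0 rose and 4 fell (median -0.62, and -1.02 without lcat OE 3). With at least 5 CPM in 3 libraries, where fewer genes are tested, 2 fell. Among the 4 was cdh2, whose call was lost in 4 of 15 alternatives. The gene zeb1b fell from 6.79 to 2.81 CPM (-1.27, SE 0.18, adjusted p = 0.000600). Of the genes on the epidermal surface list, evpla and ppl are also on the grainyhead target list. So are esrp1 and esrp2 of the epithelial regulator list and epcam of the biliary and simple epithelium list. The epcam call was lost in 6 of 15 alternatives.

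In the list of retinoid metabolism, 21 of 32 genes were tested, 2 rose and 6 fell (median -0.14); 3 fell without lcat OE 2 or lcat OE 3. The retinoic acid receptor gene rarab fell from 6.82 to 3.21 CPM (log2 fold change -1.08, SE 0.17, adjusted p = 0.000860). The dehydrogenase gene rdh12 rose from 18.1 ± 0.870 to 35.5 ± 13.3 CPM (0.97, SE 0.24, adjusted p = 0.0164). Its call was lost without CTL 2 (0.0513) and in 4 fits with another scaling or unit, within 0.000461 to 0.0852 over 15 alternatives. The genes dhrs3b (6.04 to 3.64 CPM, -0.73, SE 0.20, adjusted p = 0.0175) and rdh10b (13.4 to 10.1 CPM, -0.41, SE 0.13, adjusted p = 0.0330) fell. The dhrs3b call was lost without lcat OE 2 (0.0656) or lcat OE 3 (0.0573), within 0.00614 to 0.0656 over 15 alternatives. The rdh10b call was lost in 7 of 15 alternatives, within 0.0263 to 0.127; of the 6 fits with 1 library left out it held in the one without CTL 3 and was lost without CTL 1 (0.0726), CTL 2 (0.127), lcat OE 1 (0.0632), lcat OE 2 (0.0758) or lcat OE 3 (0.0927).

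**Figure D4:**
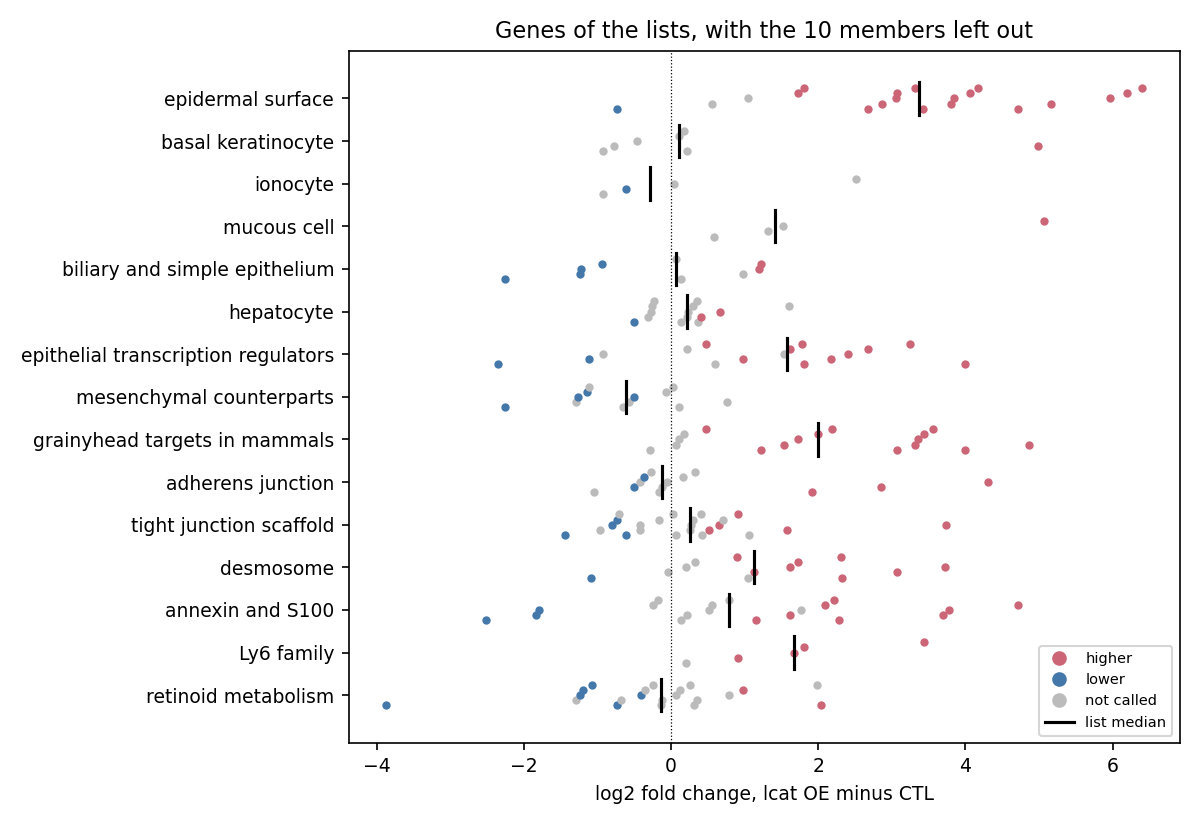
Log2 fold change (lcat OE minus CTL, edgeR fit) of every tested gene in the 15 lists, the 10 genes left out; red marks genes called higher, blue genes called lower, grey genes not called, and black bars list medians. The epidermal surface list lies farthest right with a median of 3.37, while the hepatocyte, basal keratinocyte and adherens junction medians lie near 0.

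The genes whose pattern over the 6 libraries was nearest to the mean of the 10, by Euclidean distance between log2 CPM values centred on each gene's mean, were tmsb1, net1, cd9b, LOC407643 and cav1, at distances of 0.190 to 0.432 among 6406 genes with at least 5 CPM on average. The gene tmsb1, for instance, had 4.02, 7.35 and 5.1 CPM in CTL and 20.1, 17.5 and 13.1 CPM in lcat OE. The mean profile combines higher and lower genes, and the 10 genes themselves lay at distances of 0.580 (grhl1) to 3.08 (tjp3) from it.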

How the data were processed

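Poly(A) RNA of sorted hepatocytes was sequenced in 6 libraries, grouped by sample title. The authors deposited 1 table with expected counts per gene, of which 10.8% to 11.8% per library are not whole (tolerance 0), and with TPM and FPKM values. Named per the submitters' processing notes, with no role or order, are the build GRCz11 and the tools RSEM 1.3.1, HISAT, DESeq2 1.4.5 and Bowtie2 2.3.4.3; the sources used here do not give the annotation, filters or strand setting. The deposited normalised counts and group averages were not used.

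After rounding, the expected counts went into edgeR 4.0.16 (R 4.3.3): TMM scaling, the filterByExpr filter and a two-sided robust quasi-likelihood F test for group alone. The p-values were adjusted over 14096 genes by Benjamini-Hochberg, and 0.05 was the threshold. The standard error is the absolute log2 fold change over the square root of F, and CPM uses TMM-scaled library sizes. Every pair of replicates differed by more than sampling noise, with chi-square values of 11.7 to 37.7 per degree of freedom. The 10 genes and the 15 lists were chosen with earlier results of these data known. List genes are named by rule: up to 4 per list past the threshold with the largest change and at least 5 CPM in the higher group (some are left out of the text), and direct relatives of the 10 genes; others are said to have been named after their values were seen. List names were matched by symbol or through a RefSeq gene table of GRCz12tu, in which 22127 of the table's gene numbers were found; no coordinates were taken from it. Promoter and protein sequences were not analysed here. Alternatives used other scalings and filters, a replicate block, DESeq2 1.42.0, limma 3.58.1 on logged TPM (pseudocounts 1 and 0.1) and logged FPKM (pseudocount 1), and each library left out.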

Additional observations from a re-analysis of the deposited data

How the results depend on the processing

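All 147 values obtained for the 10 genes under the 15 alternatives kept the direction of the log2 fold change; grhl1, grhl3 and ovol1 have no value with at least 5 CPM in 3 libraries, a filter they do not pass. The smallest changes were seen on log2(TPM + 1), where the pseudocount exceeds the CTL level of the low genes: 0.81 for grhl3, 0.89 for grhl1 and 1.1 for ovol1. Values for cdh1 lay between -0.69 and -0.43, for tjp3 between -0.88 and -0.53 and for sdr16c5b between -0.52 and -0.25. The median over the 10 genes was 2.02 and became 1.43 with at least 5 CPM in 3 libraries, 1.11 for FPKM with a pseudocount of 1 and 0.99 for TPM with the same pseudocount. The number of genes called higher, 2293, became 1335 with at least 5 CPM in 3 libraries (fewer genes tested), 1318 on log2(TPM + 1) and 1356 on log2(TPM + 0.1); the number called lower, 2303, became 1369 with at least 5 CPM in 3 libraries. Of the calls, 49.9% were higher with TMM, 38.8% with library totals and 30.2% on log2(TPM + 1), and the median of all genes moved from -0.02 to -0.11 with library totals and -0.18 on log2(TPM + 0.1); the cause was not tested. The labels do not pair the libraries, and same-numbered libraries did not deviate together (r = -0.0466, -0.0294 and 0.0163); with the replicate block 2040 genes were called higher and 2152 lower. No named list gene or relative was called in the opposite direction under an alternative; of 49 genes tested outside the 10, 13 changed their call in at least 1. Low counts limit grhl3, grhl2a, grhl2b and ovol1b the most.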
